A study of Mus musculus with 8 samples.

Results

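Ets2, Erg, Runx1, Zbtb21 and Prdm15 encode transcription factors of the ETS, RUNX and zinc finger classes and lie on the duplicated part of mouse chromosome 16 in Dp16 mice. They were chosen by name, by matching the Ensembl numbers of the count tables to GRCm38 gene symbols. All 5 were found among 54838 genes in the tables and 386 genes of the duplicated segment, and all 5 were among the 19358 genes that passed the expression filter. The segment runs from Lipi to Zbtb21 on GRCm38, from 75540514 to 97962622 on chromosome 16, and has 3 copies in Dp16 and 2 in WT.

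The samples were submandibular glands, a pair of major salivary glands under the jaw, from male mice with no age given in the labels. The 4 Dp16 libraries came from animals of the strain B6.129S7-Dp(16Lipi-Zbtb21)1Yey/J, a model of Down syndrome, and the 4 WT libraries came from C57BL/6J animals. Both strains were bought from the Jackson Laboratory, and no treatment is stated for either. The title of the series names calcium, reduced saliva flow, a shifted oral microbial community and Down syndrome. The duplication is present in every cell of the animal and covers all the other genes of the segment too. The effect of any 1 factor's extra copy and that of its neighbours therefore cannot be told apart. Genotype and strain also go together in these libraries, so the duplication and any other difference between the strains cannot be told apart.

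ETS proteins bind DNA through a shared ETS domain, many of them at sites with a GGAA core, and several are switched on by the RAS and ERK kinase cascade. RUNX proteins bind DNA through the Runt domain with their partner CBFB and are best known for their part in blood formation. ZBTB proteins join a BTB domain, through which they pair, to zinc fingers that touch DNA, and PRDM proteins join a domain related to the SET methyltransferase fold to zinc fingers. The human orthologs of the 5 genes are on chromosome 21.

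Promoters of the 5 genes are shown because the genes carry the same copy number and differed in their response. Each is 250 bases before to 50 bases after the most upstream start that RefSeq lists for the gene on GRCm38.p6, read 5′ to 3′ on the strand of the gene. Capitals mark exact matches on either strand to an ETS motif (CCGGAA, or TTCCGG on the other strand), a RUNX motif (TGTGGT, or ACCACA on the other strand) and the cAMP response element (TGACGTCA). The regions are chr16:95702157-95702456 on the plus strand for Ets2, and on the minus strand chr16:95586544-95586843 for Erg, chr16:92826025-92826324 for Runx1, chr16:97962573-97962872 for Zbtb21 and chr16:97851801-97852100 for Prdm15.
Ets2: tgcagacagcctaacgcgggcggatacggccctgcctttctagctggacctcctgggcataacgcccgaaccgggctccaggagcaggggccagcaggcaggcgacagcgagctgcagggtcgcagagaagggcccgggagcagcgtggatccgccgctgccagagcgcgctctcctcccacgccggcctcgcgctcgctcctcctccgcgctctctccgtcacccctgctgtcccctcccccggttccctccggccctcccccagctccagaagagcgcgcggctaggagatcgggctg
Erg: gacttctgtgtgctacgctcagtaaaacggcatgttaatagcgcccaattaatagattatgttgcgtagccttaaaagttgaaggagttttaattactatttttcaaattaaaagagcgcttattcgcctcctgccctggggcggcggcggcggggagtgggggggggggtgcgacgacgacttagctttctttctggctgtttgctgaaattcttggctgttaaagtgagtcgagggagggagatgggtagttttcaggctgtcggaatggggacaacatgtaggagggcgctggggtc
Runx1: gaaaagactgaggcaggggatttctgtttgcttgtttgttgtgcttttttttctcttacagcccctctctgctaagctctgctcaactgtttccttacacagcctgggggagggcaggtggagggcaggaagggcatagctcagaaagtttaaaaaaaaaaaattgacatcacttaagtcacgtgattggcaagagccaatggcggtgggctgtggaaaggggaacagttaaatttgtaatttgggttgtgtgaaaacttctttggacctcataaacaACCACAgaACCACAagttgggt
Zbtb21: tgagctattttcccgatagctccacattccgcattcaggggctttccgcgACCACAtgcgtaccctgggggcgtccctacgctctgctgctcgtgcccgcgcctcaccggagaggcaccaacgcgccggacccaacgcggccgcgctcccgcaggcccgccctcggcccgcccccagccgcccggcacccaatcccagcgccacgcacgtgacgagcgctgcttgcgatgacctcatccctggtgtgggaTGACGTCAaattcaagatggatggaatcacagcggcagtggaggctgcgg
Prdm15: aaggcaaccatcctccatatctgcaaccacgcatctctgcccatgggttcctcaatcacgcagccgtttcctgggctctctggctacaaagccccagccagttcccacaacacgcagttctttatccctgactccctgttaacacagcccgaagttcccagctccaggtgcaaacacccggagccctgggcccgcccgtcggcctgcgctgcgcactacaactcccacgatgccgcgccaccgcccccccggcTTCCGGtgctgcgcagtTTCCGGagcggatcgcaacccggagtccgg

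Runx1 held 2 RUNX matches, both near the end of the window past the start, and Zbtb21 held 1 RUNX match and 1 cAMP response element. The Zbtb21 window also covers the annotated 5′ end of C2cd2, at 97962598 on the same strand. C2cd2 had a log2 fold change of 0.49, so the window is not that of Zbtb21 alone. The segment end used here, 97962622, is the annotated 5′ end of Zbtb21. Most of the Zbtb21 window lies past it, and the copy number of that part in Dp16 was not tested. Prdm15 held 2 ETS matches, and Ets2 and Erg held no match to any of the motifs. The matches did not overlap each other. Of 32851 mouse promoters of this length in the RefSeq table, 14.9% held the ETS motif, 16.8% the RUNX motif and 1.79% the cAMP response element. A match is a description of the letters only. RefSeq lists 2 starts for Runx1, 3 for Erg and 2 for Prdm15, and only the most upstream is shown. Over all Runx1 starts there was also 1 ETS match. Which start the gland uses was not tested. Base composition split these windows another way. The Runx1 window had 45% G and C and a ratio of observed to expected CpG of 0.137. G and C made up 71.7% for Ets2, 50.3% for Erg, 67.3% for Zbtb21 and 63.7% for Prdm15, against a median of 52.7% over the table. The CpG ratio was 0.791 for Ets2, 0.941 for Erg, 0.99 for Zbtb21 and 0.825 for Prdm15, against a median of 0.384 over the table.

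The libraries held 90790542 to 115729892 reads in genes. Reads overlapping no counted feature took 19.77% ± 1.173 of a Dp16 library and 15.0% ± 0.983 of a WT library (SD, n = 4 each, exact two-sided permutation p = 0.0286, the smallest that 4 libraries against 4 allow). All 12 pairs of replicates differed by more than sampling noise (lowest chi-square of the counts divided by its degrees of freedom, 84.3). The labels do not say whether replicates are separate animals, so p-values measure only the spread between these samples, which may be technical. Levels are given as CPM, read counts scaled to a common library size by the TMM method. Markers of the gland's acinar cells summed to 210486 to 285418 CPM in Dp16 and 234690 to 334291 CPM in WT, nearly all of it Mucl2. Aqp5, which encodes a water channel, stood at 66.6 ± 12.9 CPM in Dp16 and 105.6 ± 7.96 CPM in WT, and the secretory factor gene Bhlha15 had 124 ± 22.2 CPM in Dp16 and 221 ± 43.9 CPM in WT (SD, n = 4 each). Both had groups that did not overlap and an edgeR adjusted p of 0.0589, and DESeq2 called both lower. Klk1, a kallikrein of the granular ducts with near-identical relatives, was called lower (log2 fold change -0.70, edgeR adjusted p = 0.0358, up to 0.114 without 1 library), and skeletal muscle markers summed to 0.868 to 1.05 CPM in Dp16 and 1.25 to 1.75 CPM in WT. The part of these differences in the results below was not tested.

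The main comparison asked whether each factor had a higher transcript level in Dp16, where it has an extra copy. It also set the change against the 1.5-fold that copy number alone would give. Runx1 rose, with a fold of 1.73. Erg and Ets2 had positive changes of 1.68-fold and 1.18-fold with groups that did not overlap, but neither passed the adjusted threshold over all genes. Zbtb21 and Prdm15 had folds of 1.01 and 0.947, with groups that overlapped. By edgeR's quasi-likelihood test at an adjusted p below 0.05, 1 of the 5 was called, against 0.625% of all genes tested (0.470% higher) and 29.1% of the 127 tested segment genes (all higher). Groups of 3 of the 5 lay apart with Dp16 higher, which was true of 7.11% of all genes tested and of 63.8% of the tested segment genes. None of the 5 lay apart with Dp16 lower, as 6.96% did. The unadjusted p of the same 3 was below 0.05 with Dp16 higher, as was that of 12.7% of all genes tested and 77.2% of the tested segment genes (24.6% of all genes in either direction). The share of the 5 was thus no larger than that of the segment in either count. Against a fold of 1.5, Ets2, Zbtb21 and Prdm15 lay below it, 3 of the 5, where 7.87% of the tested segment genes did and 3.15% lay above it.

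**Figure D1:**
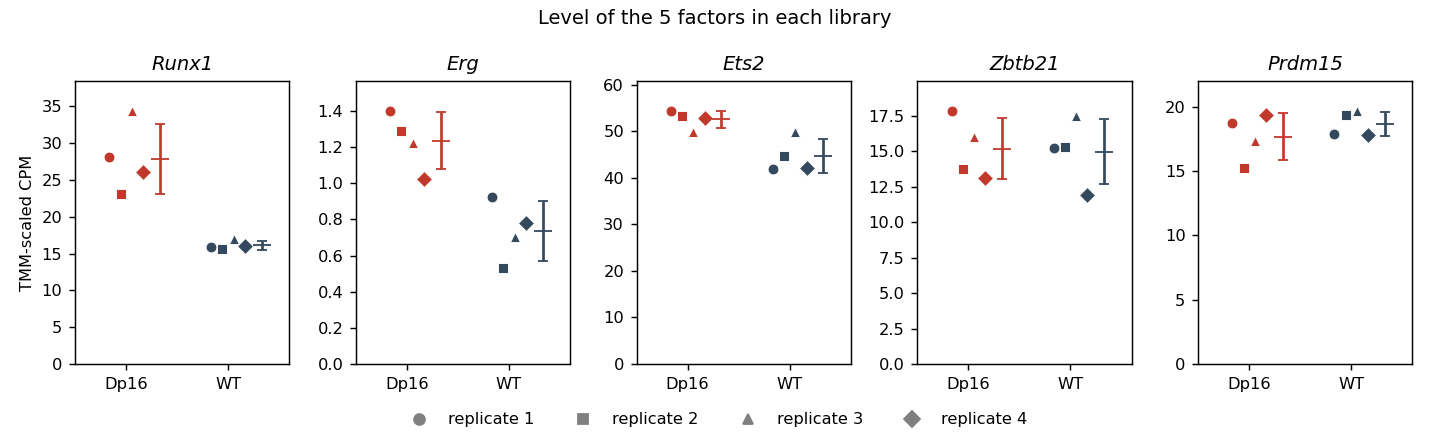
TMM-scaled CPM of each factor in the 4 Dp16 libraries (red, left) and the 4 WT libraries (dark, right), each panel from 0 on its own linear axis. Symbols mark replicates and bars the mean ± SD. The Dp16 libraries stand above all WT libraries for Runx1 and Erg and, at 49.94 against 49.92 CPM, only narrowly for Ets2, and the groups overlap for Zbtb21 and Prdm15.

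Runx1, a regulator of blood stem cells that is also expressed in some epithelia, lies at 92601466 to 92826149 on the minus strand of chromosome 16. It had 28.1, 23.1, 34.3 and 26.2 CPM in Dp16 replicates 1 to 4, against 15.9, 15.6, 17.0 and 16.1 CPM in WT replicates 1 to 4. The lowest Dp16 library stood above the highest WT library, and the Dp16 libraries were more spread than the WT libraries. Means were 27.9 ± 4.76 CPM in Dp16 and 16.1 ± 0.589 CPM in WT (SD, n = 4 each). The log2 fold change was 0.79 (SE 0.12, 95% interval 0.53 to 1.05, edgeR adjusted p = 0.0306). Against a fold of 1.5 it was 0.21 higher on the log2 scale (edgeR adjusted p = 0.226 over the segment), and the interval contains that fold.

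The Runx1 call depended on which library was left out. Its log2 fold change stayed between 0.68 and 0.87 when each library was left out in turn, but the edgeR adjusted p was 0.09995 without Dp16 replicate 1, 0.0517 without Dp16 replicate 4, and 0.0536, 0.116, 0.0912 and 0.088 without WT replicates 1, 2, 3 and 4. It stayed below 0.05 without Dp16 replicate 2 (0.0234) and without Dp16 replicate 3 (0.0471). The 106 exon bases that Runx1 shares with an annotated antisense gene, 0.881% of its exon length, lie in a gene that had 0 to 2 reads per library.

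The mean log2 CPM of pan-leukocyte markers differed by 0.56 between Dp16 and WT (exact two-sided permutation p = 0.0857). In bulk tissue more cells of a type and more RNA per cell cannot be told apart. The 7 pan-leukocyte markers summed to 253, 171, 291 and 233 CPM in Dp16 replicates 1 to 4, against 184, 172, 181 and 170 CPM in WT replicates 1 to 4. All 7 had a positive log2 fold change (median 0.60). EdgeR called 0, with 5 higher at an unadjusted p below 0.05, beside 12.7% of all genes tested. DESeq2 called 2 and limma-voom 1, beside 1145 and 247 genes called higher over all genes. Ptprc, the CD45 antigen, had the smallest p (1.03, edgeR adjusted p = 0.0589). Within Dp16 the order of the 4 libraries by Runx1 was their order by these markers.

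Dp16 replicate 2 had a marker sum within the WT range and 23.1 CPM of Runx1, above the highest WT library at 17.0 CPM. Its leukocyte markers did not all stand at WT levels. Ptprc had 40.0 CPM there, above the highest WT library at 33.5 CPM, and the other pan-leukocyte markers did not pass their highest WT library. The sums of T and NK cell markers (8.10 CPM) and B cell markers (3.06 CPM) were above all WT libraries, and that of macrophage markers (205 CPM) was under all of them. Taken relative to the mean log2 CPM of the markers, Runx1 differed by 0.21 between Dp16 and WT (exact two-sided permutation p = 0.0857). With the summed CPM as the denominator the difference was 0.38 (exact p = 0.0286). Lcp1 was the largest part of that sum, at 110 ± 12.8 CPM in Dp16 and 102 ± 7.40 CPM in WT (SD, n = 4 each). Its log2 fold change of 0.11 was the lowest of the 7 markers, so the sum gives most weight to the marker that changed least. A sum without Lcp1 was not tested. With the mean log2 CPM and without Dp16 replicate 3 the difference was 0.28 (exact p = 0.0286). The difference was positive in each case, from 0.11 to 0.28 when each library was left out.

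The other leukocyte lists moved unequally. Markers of T and NK cells summed to 8.10 to 32.9 CPM in Dp16 and 4.26 to 6.39 CPM in WT, with 1 of 9 called (Klrd1, a natural killer cell lectin, log2 fold change 1.39, edgeR adjusted p = 0.0331), where 0.470% of all genes tested were called higher. Klrd1 kept that call without Dp16 replicate 2 and lost it without any 1 of the other 7 libraries (edgeR adjusted p up to 0.09995). B cell markers summed to 3.06 to 10.2 CPM in Dp16 and 1.47 to 2.72 CPM in WT. EdgeR called 0 of the 4 tested, and all 4 were higher at an unadjusted p below 0.05, beside 12.7% of all genes tested. DESeq2 called all 9 T and NK markers and all 5 B cell markers higher, and limma-voom called 2 and 1. Over all genes DESeq2 called 1145 higher and limma-voom 247. DESeq2 was given all 54838 genes in the tables, among them genes without reads, and limma-voom the 19358 that passed the filter. Macrophage markers summed to 205 to 371.5 CPM in Dp16 and 232 to 261 CPM in WT, and neutrophil markers to 0.0827 to 4.31 CPM in Dp16 and 0.356 to 1.69 CPM in WT. No marker in any of these lists was at 0 in all 8 libraries. The part of the T, NK and B cells in the Runx1 result was not tested.

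Erg, which encodes an ETS factor that maintains endothelial identity, lies at 95359169 to 95586593 on the minus strand. It had 1.40, 1.29, 1.23 and 1.02 CPM in Dp16 replicates 1 to 4, against 0.926, 0.531, 0.704 and 0.781 CPM in WT replicates 1 to 4. The groups did not overlap, the gap between them being smaller than the range within either. The values rest on 153, 149, 132 and 99 reads in Dp16 and 92, 51, 71 and 90 reads in WT, the fewest of the 5 genes. Means were 1.23 ± 0.158 CPM in Dp16 and 0.736 ± 0.165 CPM in WT (SD, n = 4 each), a log2 fold change of 0.75 (SE 0.21, 95% interval 0.27 to 1.22, edgeR adjusted p = 0.0965). DESeq2 called it (0.74, adjusted p = 0.0168). A fold of 1.5 lies within the interval (difference 0.16, edgeR adjusted p = 0.599 over the segment).

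Endothelial markers were higher in Dp16 as well. The 15 markers summed to 104, 82.5, 96.7 and 93.7 CPM in Dp16 replicates 1 to 4, against 82.6, 72.8, 73.1 and 71.2 CPM in WT replicates 1 to 4, so that Dp16 replicate 2 and WT replicate 1 nearly met. Of the 15, 14 had a positive log2 fold change (median 0.40). By edgeR, 6 were higher at an unadjusted p below 0.05, beside 12.7% of all genes tested. EdgeR and limma-voom called 0. DESeq2 called 2 (Esam and Tek), beside 1145 genes called higher over all genes. The mean log2 CPM of the markers differed by 0.35 (exact two-sided permutation p = 0.0286). Erg relative to that mean differed by 0.40 (exact p = 0.0857) and by 0.23 to 0.50 when each library was left out in turn (exact p between 0.0571 and 0.2).

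**Figure D2:**
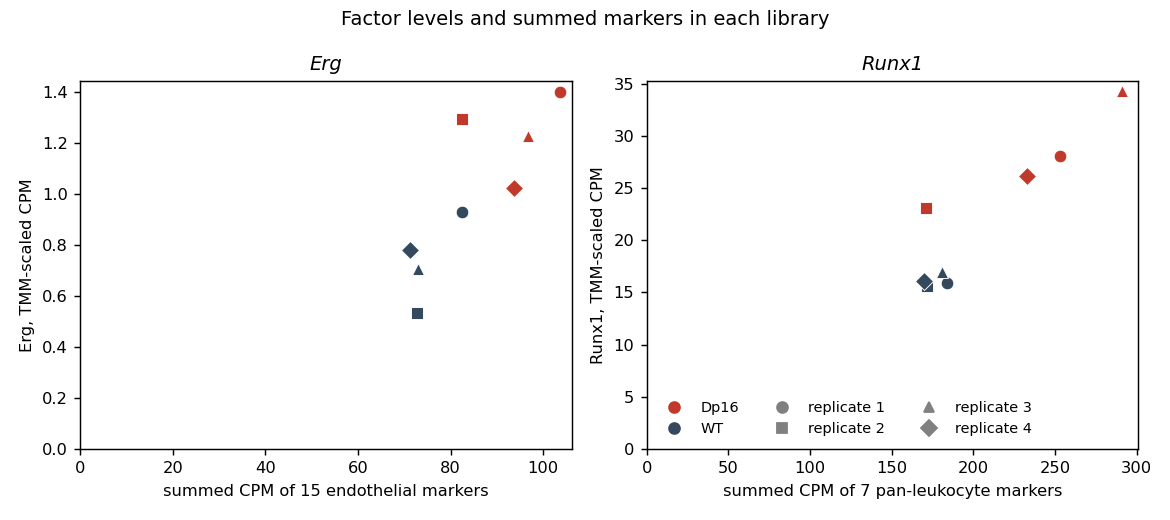
Erg against the summed CPM of 15 endothelial markers (left) and Runx1 against the summed CPM of 7 pan-leukocyte markers (right), in TMM-scaled CPM, 1 point per library, Dp16 in red and WT in dark. In both panels Dp16 replicate 2 has a marker sum within the WT range and stands above the WT libraries in the factor's level. Its endothelial sum, 82.5 CPM, is within that range only through WT replicate 1, at 82.6 CPM. By mean log2 CPM of the endothelial markers Dp16 replicate 2, at 1.74, was above the highest WT library, at 1.64.

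Ets2, an ETS factor that ERK phosphorylates, lies next to Erg at 95702075 to 95721051 on the plus strand. It had 54.28, 53.23, 49.94 and 52.83 CPM in Dp16 replicates 1 to 4, against 41.98, 44.78, 49.92 and 42.16 CPM in WT replicates 1 to 4. The groups did not overlap by the narrowest of margins, between Dp16 replicate 3 and WT replicate 3. Means were 52.6 ± 1.86 CPM in Dp16 and 44.7 ± 3.70 CPM in WT (SD, n = 4 each), a log2 fold change of 0.23 (SE 0.07, 95% interval 0.07 to 0.40, edgeR adjusted p = 0.115). This was 0.35 below a fold of 1.5 on the log2 scale (edgeR adjusted p = 0.0251 over the segment), and the whole interval lay under that fold. The difference from 1.5 was 0.31 to 0.39 on the low side when each library was left out, with an edgeR adjusted p of 0.062, 0.0553, 0.0551 and 0.052 without Dp16 replicates 1, 2, 3 and 4 and of 0.0716 without WT replicate 2.

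Zbtb21, a zinc finger repressor of the BTB class, is the last gene of the segment, at 97943357 to 97962622 on the minus strand. It had 17.8, 13.8, 16.0 and 13.2 CPM in Dp16 replicates 1 to 4, against 15.2, 15.3, 17.5 and 11.9 CPM in WT replicates 1 to 4. The groups covered nearly the same range. Means were 15.2 ± 2.14 CPM in Dp16 and 15.0 ± 2.31 CPM in WT (SD, n = 4 each), a log2 fold change of 0.02 (SE 0.14, 95% interval -0.29 to 0.33, edgeR adjusted p = 0.944). The value was 0.57 below a fold of 1.5 (edgeR adjusted p = 0.0318 over the segment). That call was lost, with an edgeR adjusted p of 0.0506, 0.0804, 0.0672 and 0.0571 without Dp16 replicates 1, 2, 3 and 4 and of 0.092 and 0.0712 without WT replicates 2 and 3. The sign of so small a change was not fixed: it was -0.07 without Dp16 replicate 1, -0.0038 without Dp16 replicate 3, -0.08 without WT replicate 4 and -0.12 with 1 surrogate variable.

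Prdm15, a zinc finger factor studied in mouse pluripotent cells, where it acts on WNT and ERK signalling through Rspo1 and Spry1, lies at 97791467 to 97851850 on the minus strand. It had 18.7, 15.3, 17.4 and 19.4 CPM in Dp16 replicates 1 to 4, against 17.9, 19.35, 19.7 and 17.8 CPM in WT replicates 1 to 4. All WT libraries and 2 of the Dp16 libraries lay within a narrow band, and Dp16 replicates 2 and 3 lay under it. Means were 17.7 ± 1.81 CPM in Dp16 and 18.7 ± 0.96 CPM in WT (SD, n = 4 each), a log2 fold change of -0.08 (SE 0.09, 95% interval -0.28 to 0.12, edgeR adjusted p = 0.611). It was 0.66 below a fold of 1.5 (edgeR adjusted p = 0.00463 over the segment), and this call held in the 8 fits without 1 library and in the 9 other alternatives run, with adjusted p-values between 0.000209 and 0.0238. Of the 5 factors it was the one with no change of call in any alternative.

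The place of the 5 among their neighbours is a description, since all segment genes share the same libraries. Over the 88 tested protein-coding genes of the segment the median log2 fold change was 0.59, with quartiles at 0.36 and 0.79. Ranked from the lowest, Prdm15 was number 4, Zbtb21 number 5, Ets2 number 13, Erg number 64 and Runx1 number 66. Log2 fold changes below 0.1 occurred in 8 of the 88, and Prdm15 and Zbtb21 were 2 of these, with 4932438H23Rik, Adamts1, Btg3, Cxadr, Gm5678 and Jam2. Calls in the segment varied with the library that was dropped. With all 8 libraries, 37 of the 127 genes were called. Dropping Dp16 replicates 1, 2, 3 and 4 in turn gave 0, 50, 27 and 6 calls. Dropping WT replicates 1, 2, 3 and 4 in turn gave 19, 0, 3 and 3 calls.

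**Figure D3:**
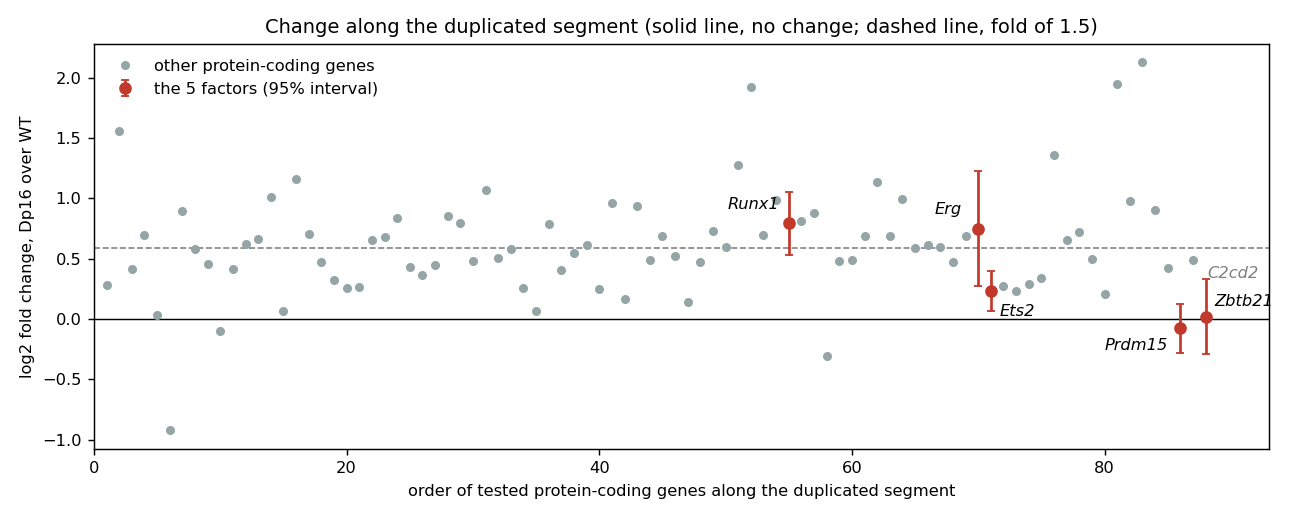
Log2 fold change of Dp16 over WT for the 88 tested protein-coding genes in their order along the duplicated segment, with the 5 factors in red with 95% intervals, the solid line at 0 and the dashed line at a fold of 1.5. Runx1 and Erg lie above the dashed line with intervals that cross it, Ets2 lies between the lines, and Prdm15 and Zbtb21 lie near 0, with C2cd2, which overlaps Zbtb21 and is placed by its start coordinate, at 0.49.

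Genes on both sides of Runx1 were near it in size. Clic6, a chloride channel family gene, and Rcan1, a calcineurin inhibitor, had log2 fold changes of 0.99 (edgeR adjusted p = 0.0786) and 0.70 (edgeR adjusted p = 0.071). Setd4, a SET domain methyltransferase gene, and Cbr1, a carbonyl reductase, rose by 0.81 (edgeR adjusted p = 0.0455) and 0.88 (edgeR adjusted p = 0.0265). Around the Erg and Ets2 pair the changes were larger on the Erg side than on the Ets2 side. The potassium channel gene Kcnj15 rose by 0.69 (edgeR adjusted p = 0.0467) and the kinase gene Dyrk1a by 0.47 (edgeR adjusted p = 0.0265), while on the far side Psmg1, a proteasome assembly factor, had 0.27 (edgeR adjusted p = 0.195) and Brwd1, a bromodomain protein gene, 0.23 (edgeR adjusted p = 0.158). Brwd1 also lay below a fold of 1.5 (edgeR adjusted p = 0.0318 over the segment).

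At the end of the segment, both zinc finger genes had smaller changes than C2cd2, Ripk4 and Tmprss2. C2cd2, which encodes a C2 domain protein, starts past Prdm15 and spans nearly all of Zbtb21 on the same strand, at 97855209 to 97962598. It had 60.1 ± 4.92 CPM in Dp16 and 42.9 ± 3.78 CPM in WT (SD, n = 4 each), with groups that did not overlap and a log2 fold change of 0.49 (SE 0.09, edgeR adjusted p = 0.0507). Prdm15 relative to C2cd2 was 0.57 lower in Dp16 on the log2 scale, and Zbtb21 relative to C2cd2 was 0.46 lower (exact two-sided permutation p = 0.0286 for each, the smallest possible, and 0.0571 adjusted over the 6 such ratios, which were chosen after the values were seen). Before Prdm15, the kinase gene Ripk4 had 0.42 (edgeR adjusted p = 0.0593) and the protease gene Tmprss2 rose by 0.91 (edgeR adjusted p = 0.0437). Past the end of the segment, at 2 copies in both groups, B230307C23Rik had 0.04 and A630089N07Rik had -0.11. Zbtb21 shares 86 exon bases, 1.36% of its exon length, with C2cd2 on the same strand, and reads lying there are ambiguous between the genes.

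Ratios between the 5 genes were taken within each library, where the scaling of the library cancels apart from the small prior count added to each gene. Of the 10 pairs, 6 differed between Dp16 and WT at the smallest p the design allows (exact two-sided permutation p = 0.0286, adjusted over the 10 pairs 0.0476). The pairs are built from only 5 genes, so the 6 are not separate results. Their adjusted p rests on how many pairs reach that smallest p. Runx1 gained on both zinc finger genes, by 0.75 relative to Zbtb21 and 0.86 relative to Prdm15 on the log2 scale. Erg gained on them too, by 0.73 relative to Zbtb21 and 0.83 relative to Prdm15.

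Ets2 was intermediate. It gained 0.32 relative to Prdm15 and lost ground to Runx1 with a difference of -0.54, both among the 6 pairs above. The Ets2 to Erg ratio had -0.51 (exact p = 0.0571, adjusted 0.0816), and the Ets2 to Zbtb21 ratio had 0.21 (exact p = 0.171, adjusted 0.214). Erg and Runx1 had a ratio that differed by -0.03 (exact p = 0.857), and Zbtb21 and Prdm15 one that differed by 0.10 (exact p = 0.457). With any library left out the 6 differences kept their sign, but the adjusted p passed 0.05 for the Ets2 to Runx1 ratio in all 8 cases and for each of the other 5 ratios in 7 of the 8, with adjusted p-values of up to 0.143.

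**Figure D4:**
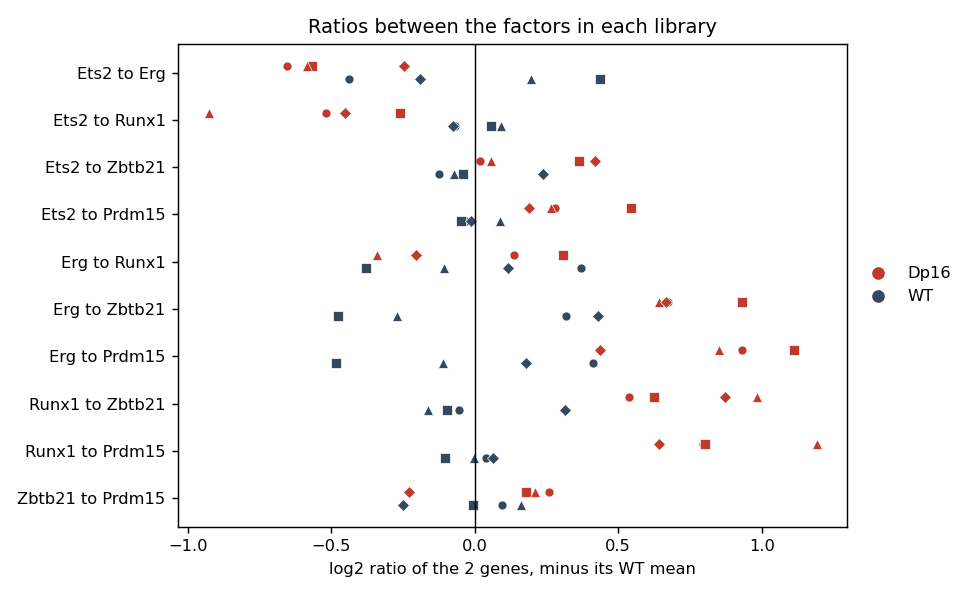
Log2 ratio of each pair of factors in each library, minus the mean of the 4 WT libraries, Dp16 in red above WT in dark for each pair; symbols mark replicates as in the plot of CPM by library. For Runx1 and Erg over either zinc finger gene all 4 Dp16 libraries lie to the right of all 4 WT libraries, and for Erg over Runx1 the groups overlap.

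Levels between genes were compared per kilobase of exon. Ets2 was the most abundant of the 5, at 9.10 ± 0.321 CPM per kilobase in Dp16 and 7.74 ± 0.641 in WT (SD, n = 4 each). Zbtb21 followed at 2.40 ± 0.338 in Dp16 and 2.37 ± 0.365 in WT, and Runx1 was at 2.32 ± 0.396 in Dp16 and 1.34 ± 0.049 in WT. Zbtb21 and Runx1 did not differ beyond their spread in Dp16, whereas in WT Runx1 was the lower and stood under Prdm15. Prdm15 had 1.56 ± 0.160 in Dp16 and 1.65 ± 0.0846 in WT, and Erg was the lowest at 0.356 ± 0.0456 in Dp16 and 0.212 ± 0.0475 in WT.

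In the ETS family, 24 of 26 genes were tested. Ehf, an ETS factor of epithelia, had the highest level per kilobase of exon (92.0 CPM per kilobase in Dp16 and 110 in WT), with Ets2 number 7 in Dp16 and number 6 in WT, and Erg number 21 in both. The family had 15 positive and 9 negative log2 fold changes with a median of 0.13, beside 9890 positive and 9468 negative with a median of 0.01 over all genes tested. EdgeR called 1 gene higher and 0 lower. It was Gabpa, the DNA-binding subunit of a factor for mitochondrial genes, which also lies on the segment. Gabpa had 55.3 ± 4.84 CPM in Dp16 and 36.0 ± 1.96 CPM in WT (SD, n = 4 each), a log2 fold change of 0.62 (SE 0.08, edgeR adjusted p = 0.0265). Left-out libraries changed this count to 3 without Dp16 replicate 2 and to 0 without Dp16 replicates 1 and 4 and WT replicates 2, 3 and 4.

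Among the 21 tested ETS genes outside the segment, edgeR and limma-voom called 0. By edgeR, 6 were higher and 3 lower at an unadjusted p below 0.05, beside 12.7% and 11.9% of all genes tested. DESeq2 called Ets1, Fli1 and Spib higher and Spdef lower, beside 1145 higher and 851 lower over all genes. Fli1, the closest relative of Erg, had a log2 fold change of 0.61 (edgeR adjusted p = 0.0807), and Ets1, the closest relative of Ets2, had 0.50 (edgeR adjusted p = 0.0766). Both have 2 copies in each group, and neither overlapped between groups. Relative to Fli1, Erg differed by 0.16 (exact permutation p = 0.457, adjusted over the 6 ratios 0.549), and relative to Ets1, Ets2 differed by -0.25 (exact p = 0.171, adjusted 0.257). Spib, a factor of B and plasmacytoid cells, had 2.43 (edgeR adjusted p = 0.0922), and Spi1, the myeloid factor PU.1, had 0.29 (edgeR adjusted p = 0.501).

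Of the remaining relatives, Spdef had a log2 fold change of -0.38 (edgeR adjusted p = 0.0985), Ehf -0.26 (edgeR adjusted p = 0.248), Elf5 -0.18 (edgeR adjusted p = 0.281) and Elf3 -0.09 (edgeR adjusted p = 0.668). All 4 are known from epithelia, and none passed the test by edgeR.

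Of the 11 RUNX proteins and cofactors, all tested, Runx1 was the 1 gene called, with 6 positive and 5 negative log2 fold changes and a median of 0.06. Without Runx1 the 10 others had 0 calls by edgeR, 1 call by DESeq2 (Tle4) and 0 by limma-voom. Tle4, a corepressor (0.48, edgeR adjusted p = 0.103), was the 1 gene at an unadjusted p below 0.05. Of all genes tested, 12.7% were higher at that p. Runx2, the RUNX factor of bone, was the most abundant RUNX gene per kilobase of exon, at 5.67 ± 0.177 CPM per kilobase in Dp16 and 5.88 ± 0.689 in WT (SD, n = 4 each). It had a log2 fold change of -0.05 (edgeR adjusted p = 0.74). Runx3, a factor of lymphocytes, had 0.76 (edgeR adjusted p = 0.212), and the partner gene Cbfb had -0.14 (edgeR adjusted p = 0.366). Relative to Runx2, Runx1 was 0.82 higher in Dp16 (exact permutation p = 0.0286, adjusted over the 6 ratios 0.0571), and relative to Runx3 it differed by 0.17 (exact p = 0.629, adjusted 0.629).

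**Figure D5:**
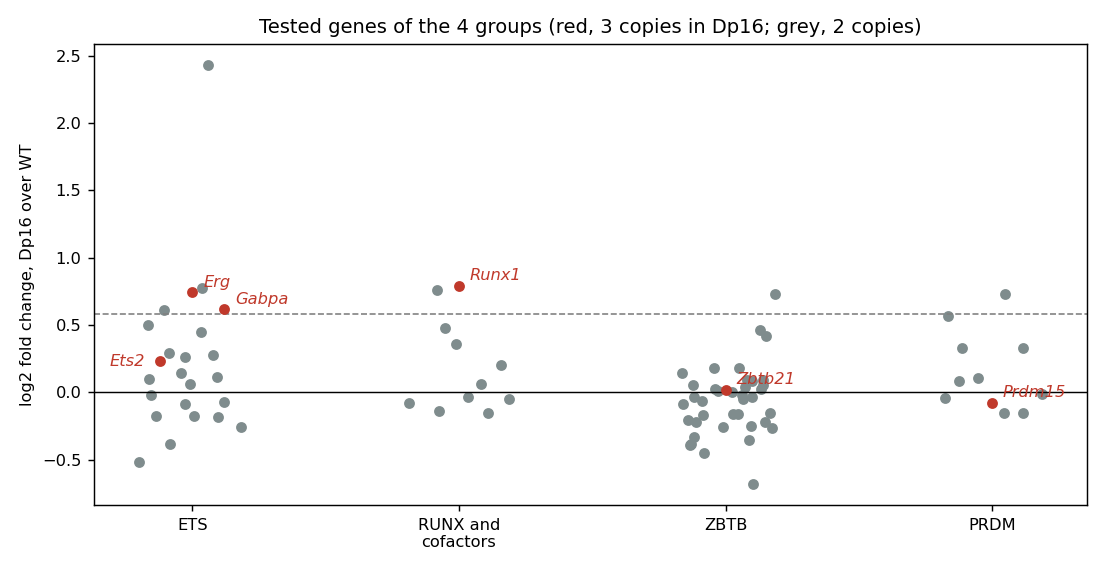
Log2 fold change of Dp16 over WT for the tested ETS, RUNX and cofactor, ZBTB and PRDM genes, 1 point per gene, with genes at 3 copies in Dp16 in red and genes at 2 copies in grey; the solid line is no change and the dashed line a fold of 1.5. Erg, Gabpa and Runx1 lie at or above the dashed line, and Zbtb21 and Prdm15 lie among the 2-copy members of their families.

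In the ZBTB family 39 of 40 genes were tested, with 17 positive and 22 negative log2 fold changes and a median of -0.04. EdgeR called 0, with 2 higher and 10 lower at an unadjusted p below 0.05, beside 12.7% and 11.9% of all genes tested. Limma-voom called 0, and DESeq2 called 1 higher (Zbtb8b) and 4 lower (Zbtb11, Zbtb48, Zbtb7b and Zbtb8a). Over all genes DESeq2 called 1145 higher and 851 lower. Zbtb11 had a log2 fold change of -0.26 (edgeR adjusted p = 0.0786), Zbtb7b, a factor of CD4 T cell fate, -0.33 (edgeR adjusted p = 0.091) and Zbtb8a -0.39 (edgeR adjusted p = 0.105). Zbtb14 had 0.18 (edgeR adjusted p = 0.195). By level per kilobase of exon Zbtb21 was number 19 of the 39 in Dp16 and number 20 in WT.

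In the PRDM family 11 of 15 genes were tested, the others being Prdm6, Prdm12, Prdm13 and Prdm14. Positive and negative log2 fold changes numbered 6 and 5, with a median of 0.08. EdgeR and limma-voom called 0. By edgeR, 2 were higher and 0 lower at an unadjusted p below 0.05, beside 12.7% and 11.9% of all genes tested. DESeq2 called both of the higher genes, Prdm1 and Mecom, beside 1145 genes called higher over all genes. Prdm1, a repressor of plasma cells and other lymphocytes, had 0.73 (edgeR adjusted p = 0.0856), and Mecom, a factor of blood stem cells and epithelia, had 0.33 (edgeR adjusted p = 0.11). Prdm2 had -0.15 (edgeR adjusted p = 0.253). Prdm15 was number 3 of the 11 by level per kilobase of exon in Dp16 and in WT.

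Genes described elsewhere as targets of the factors were read as lists. All 10 ERG targets of endothelium had positive log2 fold changes (median 0.35), with 0 called by edgeR, DESeq2 or limma-voom. At an unadjusted p below 0.05, 12.7% of all genes tested were higher, as were 3 of the 10. These were Cldn5, a tight junction protein of vessels, with 0.59 (edgeR adjusted p = 0.186), Dll4, a Notch ligand of vessel tips, with 0.69 (edgeR adjusted p = 0.189) and Cdh5, the endothelial cadherin, with 0.40 (edgeR adjusted p = 0.18). The list shares 6 of its genes with the endothelial markers above, which moved the same way, and the part of endothelial content in it was not tested.

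Of 8 RUNX1 targets of blood cells, 4 passed the filter, and edgeR, DESeq2 and limma-voom called 0. Gfi1, a repressor of the myeloid line, was at an unadjusted p below 0.05 (1.5, edgeR adjusted p = 0.131, 5 to 44 reads per library). Of all genes tested, 12.7% were higher at that p. Spi1 is given above, the macrophage receptor gene Csf1r had 0.10 (edgeR adjusted p = 0.568) and the platelet integrin gene Itga2b had -0.20 (edgeR adjusted p = 0.529). Both PRDM15 targets were tested and neither was called by edgeR, DESeq2 or limma-voom, nor was either at an unadjusted p below 0.05. Rspo1, a WNT agonist, had 0.16 (edgeR adjusted p = 0.808) and Spry1, an ERK pathway inhibitor, had 0.21 (edgeR adjusted p = 0.429).

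Of the 5 genes described as ETS2 targets 0 rose and 1 fell. Mmp9, a gelatinase, had 1.94, 1.36, 0.900 and 1.92 CPM in Dp16 replicates 1 to 4, against 5.20, 6.24, 3.64 and 4.43 CPM in WT replicates 1 to 4. All Dp16 libraries lay under all WT libraries. The log2 fold change was -1.67 (SE 0.26, edgeR adjusted p = 0.0388), and 0.155% of all genes tested were called lower. Mmp9 kept its call without Dp16 replicate 2 or 3 and lost it without any 1 of the other 6 libraries (edgeR adjusted p up to 0.118). Plau, the urokinase gene, went the other way with groups that did not overlap (0.43, edgeR adjusted p = 0.11). Mmp3, a stromelysin, had 0.71 (edgeR adjusted p = 0.391), Anpep, an aminopeptidase, -0.11 (edgeR adjusted p = 0.673) and Bcl2l1, a survival gene, -0.20 (edgeR adjusted p = 0.186).

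The ERK pathway, which acts on Ets2 protein, was read from 15 output genes, of which 14 were tested. Positive values numbered 5 and negative values 9, with a median of -0.17. EdgeR and limma-voom called 0. By edgeR, 1 was higher and 5 lower at an unadjusted p below 0.05, beside 12.7% and 11.9% of all genes tested. DESeq2 called Egr1, Fos and Ier3 lower, beside 851 genes called lower over all genes. Fos had 1.01, 0.607, 2.06 and 0.858 CPM in Dp16 replicates 1 to 4, against 9.90, 11.9, 2.98 and 3.17 CPM in WT replicates 1 to 4 (log2 fold change -2.62, edgeR adjusted p = 0.0644). Egr1 had 6.32, 1.85, 4.31 and 5.59 CPM in Dp16 replicates 1 to 4, against 9.22, 11.7, 16.1 and 9.67 CPM in WT replicates 1 to 4 (-1.37, edgeR adjusted p = 0.0786). Neither gene overlapped between groups and both are early response genes.

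The genes whose level varied most like each factor from library to library, after the mean of its own group was taken out, are given as a description over 8 libraries that share depth and tissue make-up, from 9699 protein-coding genes outside the segment. Runx1 was followed most closely by Dennd4b (r = 0.992), Tmem119 (0.989) and Prdm4 (0.986). Ets2 was followed by Slc25a33 (0.980), Sdf4 (0.972) and Rnmt (0.964), and Erg by Uck1 (0.964), Trp53bp2 (0.960) and Diablo (0.953). Zbtb21 was followed by Slc46a1 (0.984), Dusp8 (0.971) and Chchd7 (0.968), and Prdm15 by Galnt1 (0.960), Egr1 (0.953) and Insig1 (0.942). Between the factors themselves the highest r was 0.535, for Ets2 and Zbtb21, and the lowest was -0.456, for Erg and Prdm15.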

How the data were processed

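RNA of submandibular glands of male Dp16 and WT mice, 4 libraries each, was sequenced after ribosomal RNA depletion with a stranded kit, per the labels. The authors deposited 1 table per library of raw read counts, whole numbers per Ensembl gene. FastQC, STAR, HTSeq, DESeq2 and the build GRCm38 are listed without versions, per the submitters' processing notes. The annotation release and strand setting are, in the sources used here, not given, so antisense overlaps are uncertain. The 5 rows naming no gene held 58.1% to 65.4% of a library's reads and were left out. GENCODE M21 on GRCm38 matched 54723 of 54838 genes.

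Counts were fitted in R 4.3.3 with edgeR 4.0.16 (default expression filter, TMM, quasi-likelihood test, no covariate), with Benjamini-Hochberg adjustment over all 19358 genes and a threshold of 0.05. The difference from a fold of 1.5 was tested in the same model with an offset in the Dp16 libraries and adjusted over the 127 tested segment genes. Exact permutation tests, two-sided, took every assignment of the genotype labels to the 8 libraries and used log2 CPM with a prior count of 2. Promoters came from RefSeq. The scripts were tested on simulated data.

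The 5 factors, lists, tests and the rule for named genes were chosen with earlier results of these data known. That rule takes the 5 factors, 12 relatives and partners, called list genes, up to 3 further genes of each family list by smallest p, tested target genes, the 2 nearest tested protein-coding genes on each side of a factor, and the 3 most like in level. The ratios to relatives and to C2cd2, single marker genes, genes called by another tool and the genes with changes below 0.1 were chosen after seeing the values. Alternatives were DESeq2 1.42.0, other scalings and filters, limma-voom (limma 3.58.1), a replicate block, 1 surrogate variable (sva 3.50.0), an adjusted p of 0.1 and each library left out.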

Additional observations from a re-analysis of the deposited data

Results flagged for a closer look

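Of 60 sets of 4 values examined for a library far from the other 3, 4 were picked out, and chance picks out about 1 in 20. The log2 ratio of Erg to Zbtb21 in Dp16 replicate 2 was -3.40, above the other Dp16 libraries. The log2 ratio of Zbtb21 to Prdm15 in Dp16 replicate 4 was -0.56, below the other Dp16 libraries. Endothelial markers summed to 82.6 CPM in WT replicate 1, above the other WT libraries. Neutrophil markers summed to 4.31 CPM in Dp16 replicate 3, above the other Dp16 libraries. Reads overlapping no counted feature, which enter no comparison of genes, took 19.77% of reads on average in Dp16 and 15.0% in WT.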

How the results depend on the processing

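Across 33 results and 408 values from alternatives, 290 kept their direction and their side of the threshold. The log2 fold changes of Ets2, Erg, Runx1 and Prdm15 kept their sign throughout. DESeq2, limma-voom and the other scalings left the call of Runx1 in place, and limma-voom and the other scalings left the calls below a fold of 1.5 in place. DESeq2 was not run against 1.5. On the change itself, DESeq2 called Erg (0.74, adjusted p = 0.0168). The sign of Zbtb21 turned with 1 surrogate variable (-0.12). Runx1 relative to leukocyte markers passed with their summed CPM (0.38), a sum of which Lcp1 was the largest part.

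Over all genes, 121 were called, against 1996 by DESeq2, 223 with no expression filter, 396 by limma-voom, 776 with the replicate block, 78 with 1 surrogate variable and 1308 at an adjusted p below 0.10. Higher calls were 75.2% of the 121, 57.4% by DESeq2, 62.4% by limma-voom and 46.4% with the replicate block. The 1996 were out of all 54838 genes in the tables, among them genes without reads, and the 396 out of the 19358 that passed the filter. DESeq2 called 6 ETS genes, 2 RUNX proteins and cofactors, 5 ZBTB genes, 2 PRDM genes, 3 ERK output genes and 84 segment genes. Limma-voom called 59 segment genes. The causes were not tested.

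With each library left out in turn, the log2 fold change was 0.68 to 0.87 for Runx1 and -0.0778 to 0.0903 for Zbtb21, and the difference from a fold of 1.5 was -0.39 to -0.31 for Ets2 and -0.66 to -0.49 for Zbtb21. Runx1 relative to leukocyte markers was 0.11 to 0.28. The ratio of Erg to Prdm15 was 0.67 to 0.97, Erg to Runx1 -0.15 to 0.10, Erg to Zbtb21 0.57 to 0.87, Ets2 to Erg -0.66 to -0.37, Ets2 to Prdm15 0.24 to 0.36, Ets2 to Runx1 -0.63 to -0.41, Runx1 to Prdm15 0.75 to 0.93 and Runx1 to Zbtb21 0.68 to 0.86. Calls numbered 0 to 446 over all genes, 0 to 50 in the segment, 0 to 3 in the ETS family, and 0 to 1 each in the RUNX, ETS2 target and ERK output lists. These fits have fewer libraries.

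Same-numbered Dp16 and WT libraries deviated together with correlations of 0.191, 0.129, 0.0777 and 0.105, and 2 of 4 correlated best with their own number, so the numbers were not taken to pair the samples. Numbers are those of the sample titles, and the library name of WT replicate 4 carries a 5, so its number is in doubt. With the replicate block the log2 fold changes were 0.24 for Ets2, 0.76 for Erg, 0.78 for Runx1, 0.02 for Zbtb21 and -0.08 for Prdm15, and no call among the 5 changed. Depth limits Erg most, at 51 to 153 reads per library. The edgeR quasi-likelihood fit with its newer dispersion method was chosen after seeing the data and gave 143 calls.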
